A study of Rattus norvegicus with 16 samples.

Results

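The genes described here are Myh6 and Myh7, the α and β cardiac myosin heavy chains, and Nppb, Acta1 and Ankrd1, which are widely used as markers of cardiac hypertrophy. They were measured in 16 samples of left ventricular RNA from male rats on 16 oligonucleotide arrays (Affymetrix rat expression arrays). They are represented by all 9 probe sets that the platform annotation assigns to these 5 genes (of 10411 genes named by probe sets of a single gene), of 15866 probe sets tested. Myh7 (1386993_at and 1367928_at), Myh6 (1368093_at and 1387049_at) and Ankrd1 (1367665_at and 1367664_at) have 2 probe sets each, named in the order of brighter and dimmer. Nppb (1367616_at) and Acta1 (1369928_at) have 1 each, and 1 further probe set (1398248_s_at) is assigned to both myosins at once. No filter on low signal was applied, so all 9 were tested. Each value is a MAS5 signal (a linear measure of brightness, with every array brought to the same trimmed mean), and levels of different genes were not compared, apart from the ratio of Myh7 to Myh6 within an array, which serves only to compare groups.

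The 4 groups had 4 arrays each. Wistar Kyoto rats breathing filtered air (WKY-air) and spontaneously hypertensive rats breathing air (SH-air) were the controls. The exposed rats of each strain (WKY-DE and SH-DE) breathed diesel exhaust at 2 mg/m3 of particle mass on 5 days per week for 4 weeks, for 6 h per day by the sample records and 4 h per day by the methods of the study. All rats were males of 12 to 14 weeks at the start, and the heart was taken 1 day after the final exposure. The RNA came from portions of left ventricle and septum with all their cell types, so that fewer cells of a type and less RNA per cell cannot be told apart. The comparison of SH with WKY carries every inherited difference between the strains together with blood pressure, and array probes were not compared with the sequence of either strain. The methods of the study call the 4 samples of a group biological replicates.

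The ventricular myocyte carries its contraction on a motor protein, the myosin heavy chain, which in the rat is made mostly as the fast α form (Myh6) in the adult and as the slow β form (Myh7) before birth. Myh6 and Myh7 lie next to each other in the rat genome, and thyroid hormone raises the first and lowers the second. Pressure overload typically raises Myh7, the skeletal α-actin Acta1 and the natriuretic peptides in rodents, a set known as the fetal gene program. Nppb encodes B-type natriuretic peptide, a hormone released by stretched myocytes, and Ankrd1 encodes a stretch-responsive transcriptional cofactor that binds titin at the sarcomere and also enters the nucleus.

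Acta1 and Nppb are shown by the sequence before their start sites, because Acta1 was the member whose signal passed the test between exposed and air-breathing WKY rats and because it was among the 5 genes whose signal followed Nppb most closely across the 16 arrays. The 250 bases before the RefSeq start (GRCr8) run 5′ to 3′ on the gene's strand, from chr5:163699758-163700007 on the plus strand for Nppb and from chr19:68784195-68784444 on the minus strand for Acta1. Capitals mark matches to motifs of myocyte gene regulation, which are the GATA factor motif GATAA, the MCAT element CATTCC, which reads GGAATG on the other strand, the CArG box of serum response factor and the TATA box TATAAA.
Nppb: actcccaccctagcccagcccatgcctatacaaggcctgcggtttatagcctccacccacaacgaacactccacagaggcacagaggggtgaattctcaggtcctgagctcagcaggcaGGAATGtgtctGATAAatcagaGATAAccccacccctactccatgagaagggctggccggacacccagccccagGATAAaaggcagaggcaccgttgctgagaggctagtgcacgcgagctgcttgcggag
Acta1: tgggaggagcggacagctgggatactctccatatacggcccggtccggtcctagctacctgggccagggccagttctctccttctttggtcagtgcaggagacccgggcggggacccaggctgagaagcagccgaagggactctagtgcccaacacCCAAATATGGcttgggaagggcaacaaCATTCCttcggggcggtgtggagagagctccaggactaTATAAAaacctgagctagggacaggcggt
The Nppb window holds 3 GATAA matches, starting at -120, -109 and -57 from the start site, and 1 MCAT match at -131. The Acta1 window holds 1 CArG box from -94 to -85, 1 MCAT match at -67 and 1 TATAAA at -29. Of 33469 rat windows of the same length, 23.5% hold GATAA and 12.1% hold the MCAT letters on either strand, 1.5% hold a CArG box and 8.06% hold TATAAA on the gene's strand. The windows of Myh7 and Myh6 hold none of these letters apart from 1 MCAT match at -23 of Myh6. A match describes the letters in the window and is not a binding site.

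Some samples stood apart by atrial transcripts. The signal of Myl7, the atrial regulatory light chain, was 25946, 4415, 11451 and 9718 on the WKY-air arrays, 657, 404, 9630 and 2927 on the WKY-DE arrays, 33.5, 154, 33.4 and 75.0 on the SH-air arrays and 94.2, 1443, 7876 and 187 on the SH-DE arrays. Every WKY-air array was above every SH-air array, and array 3 stood highest in both exposed groups. Of 6 measured atrial markers, 4 (Myl7, Myl4, Sln and Dkk3) were called lower in SH-air than in WKY-air. The summed atrial markers ran from 34236 to 98756 in WKY-air and 13830 to 43953 in WKY-DE, and from 13301 to 24958 and 13721 to 35526 in the SH groups in air and exhaust. Of 11 fibroblast markers, 7 were called lower in SH-air than in WKY-air and 1 lower in WKY-DE, with sums of 39217 to 46567 and 29943 to 36989 in WKY-air and WKY-DE, and of 25975 to 29138 and 29840 to 33185 in SH-air and SH-DE. The fibroblast sums were thus higher with exhaust in SH rats, without overlap. Of 8 measured endothelial markers none was called in any comparison. Their sums did not overlap between the air groups, at 8278 to 9833 in WKY-air and 7901 to 8143 in SH-air. With exhaust they ran from 8414 to 9576 in WKY-DE and 6812 to 8768 in SH-DE. The ventricular light chains Myl2 and Myl3 had signals of at least 27749 and 21228 on all arrays, and among the 11 ventricular markers only the dim Irx4 was called, lower in WKY-DE. The summed ventricular markers did not overlap between air and exhaust in either strain. They ran from 249869 to 308284 in WKY-air against 184522 to 244903 after exhaust, and from 226704 to 252032 in SH-air against 182703 to 219459 after exhaust. The median log2 difference over the 11 was -0.35 in WKY-DE against WKY-air and -0.20 in SH-DE against SH-air. The sums are of the deposited signals, and the part of array scaling in them was not tested. The summed macrophage markers (4915 to 5460 and 3696 to 4666) and those of smooth muscle and pericytes (5726 to 6413 and 4731 to 5432) were also without overlap between the WKY groups, lower with exhaust. Of 12 fast skeletal muscle markers none was called in any comparison. The fast myosin heavy chain genes Myh1 and Myh2 ran from 6660 to 11918 and from 35.4 to 138 over all arrays. Cross-hybridization of the Myh1 probe set with other myosin genes was not tested, so the Myh1 level remains uncertain. The ratio of 3′ to 5′ signal of Gapdh, a sign of RNA integrity, was 1.30 to 1.35 in WKY-air, 1.12 to 1.33 in WKY-DE, 1.23 to 1.41 in SH-air and 1.17 to 1.31 with exhaust in SH. That of hexokinase spread more widely, at 2.87 to 3.79 in WKY-air and 2.70 to 4.02 in WKY-DE. It was 1.88 to 4.16 in SH-air and 2.36 to 4.32 in SH-DE. The ratio of beta-actin was 1.37 to 1.61 in both WKY groups, 1.37 to 1.64 in SH-air and 1.30 to 1.77 in SH-DE. The part of these tissue and RNA differences in the results was not tested. Leaving out the array of highest Myl7 in WKY-air, WKY-DE and SH-DE still left Myl7 at 4415 to 11451 in WKY-air against at most 154 in SH-air, so the strain difference in atrial markers remained in that fit.

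Myh7 separated the strains. The signal of its brighter set was 36614, 35097, 39324 and 36854 on the WKY-air arrays and 19415, 18587, 18769 and 20833 on the SH-air arrays. The groups did not overlap, and the highest SH-air array was well below the lowest WKY-air array. Myh7 was lower in SH-air by -0.93 on the log2 scale (SE 0.18, 95% confidence interval -1.31 to -0.55, limma adjusted p = 0.0123), a ratio of 0.525 (0.404 to 0.682). The dimmer Myh7 set read 8659, 8267, 10836 and 9122 in WKY-air and 3883, 3066, 4190 and 4527 in SH-air. It too was without overlap, and lower in SH-air by -1.24 (SE 0.29, adjusted p = 0.0310), a ratio of 0.424 (0.276 to 0.650). Both are probe sets of 1 gene and are not independent measurements.

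These were the only calls among the 9 members in the air comparison, 2 of 9 lower and 0 higher, where 1.79% of all probe sets were called lower and 1.36% higher. The call of the brighter set held without any single array, with differences from -0.96 to -0.90 and an adjusted p of at most 0.0365. That of the dimmer set was lost when any of the 8 arrays of WKY-air and SH-air was left out, with adjusted p up to 0.0910, and after quantile normalization between arrays (-1.15, adjusted p = 0.0554). Within groups, the brighter Myh7 set followed Myl7 with r = 0.59 over the 16 arrays and the dimmer one with r = -0.06, on log2 signals as deviations from group means.

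**Figure D1:**
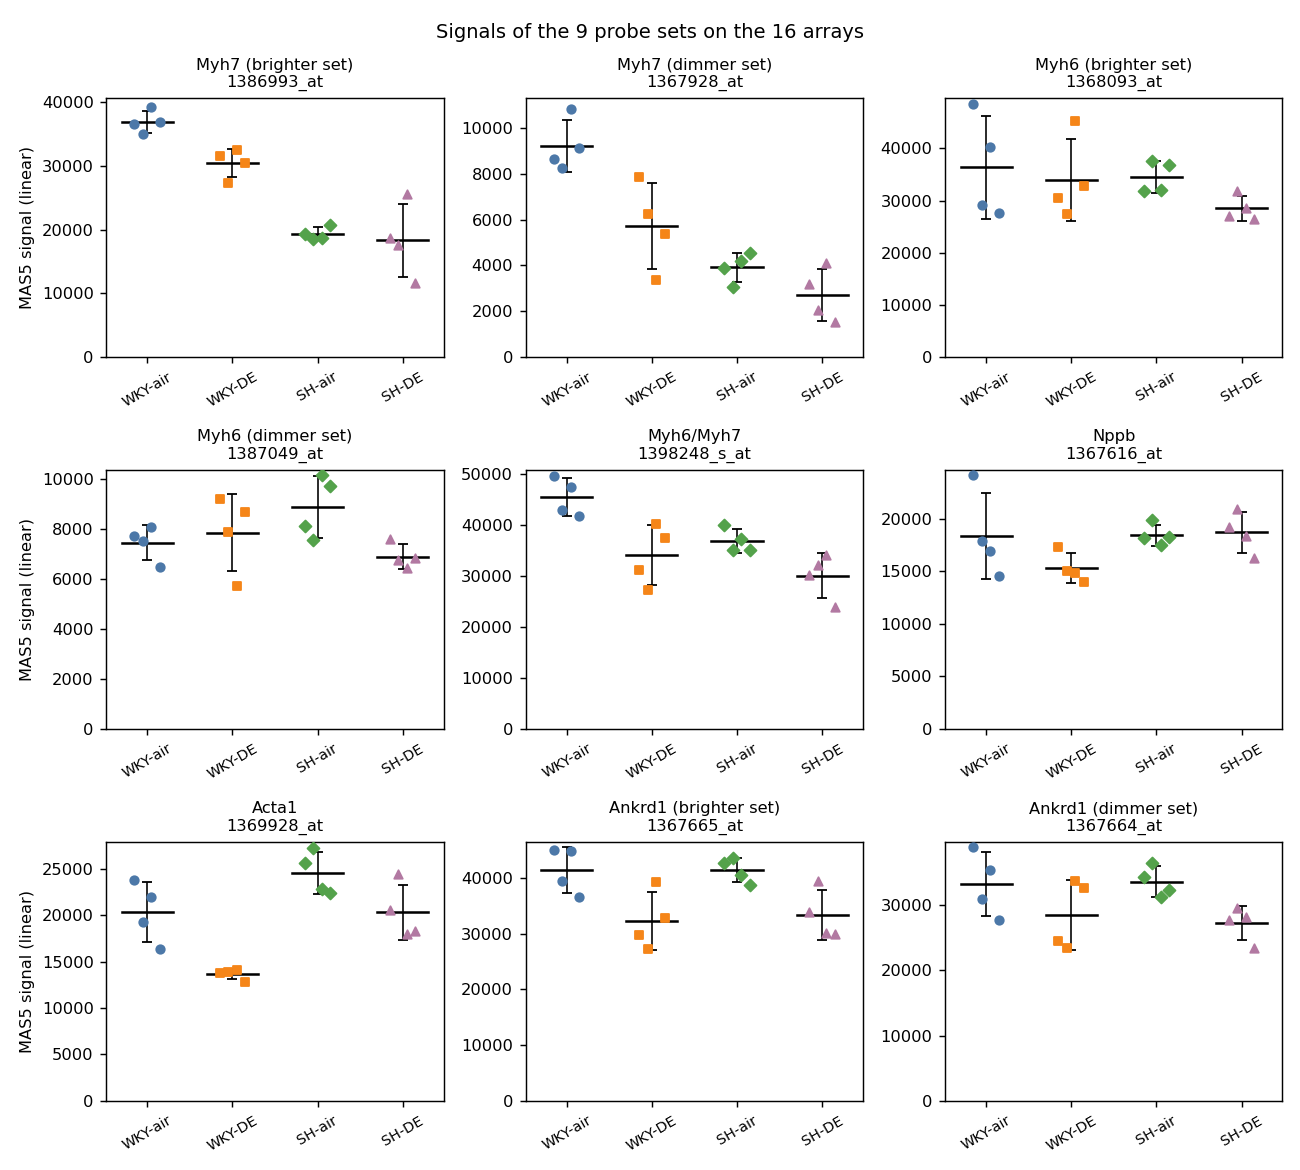
MAS5 signal (linear scale from 0) of the 9 probe sets on each of the 4 arrays per group, as points, with the group mean as a horizontal line and the SD as bars. Both Myh7 probe sets were lower in SH-air than in WKY-air without overlap, and Acta1 lay between 12839 and 14051 in WKY-DE, under the lowest WKY-air array at 16336.

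Myh6 showed no call in any comparison. The brighter set had signals of 48557, 29111, 40356 and 27634 in WKY-air and 31752, 37529, 32124 and 36732 in SH-air. The SH-air arrays lay within the range of WKY-air. The log2 difference was -0.04 (95% confidence interval -0.44 to 0.36, adjusted p = 0.936), turning to 0.10 after quantile normalization. The dimmer set averaged 7463 ± 694 (SD, n = 4) in WKY-air and 8913 ± 1241 in SH-air, a difference of 0.25 (-0.08 to 0.58, adjusted p = 0.419). The Myh6 sets did not follow each other across arrays (r = 0.01 over 16 arrays, -0.24 within groups), in contrast to those of Myh7 (0.89 and 0.66) and Ankrd1 (0.88 and 0.84). Since the myosin genes are nearly identical over long stretches, cross-hybridization between them was not tested and the Myh6 levels remain uncertain.

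The probe set shared by both myosins read 49594, 42918, 47562 and 41732 in WKY-air and 40043, 35199, 37329 and 35127 in SH-air. All SH-air arrays were below all WKY-air arrays, yet the difference of -0.30 did not pass the test (SE 0.14, adjusted p = 0.298). Within groups this set followed Myl7 with r = 0.71. With it, 3 of 9 members were lower without overlap between the groups, where 5.66% of all probe sets were. All of these are probe sets of Myh7, alone or shared with Myh6, and are not independent measurements.

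Taken as a ratio to Myh6 on the same array, Myh7 gave the same order of the strains in air. The ratio removes a factor common to the whole array, but need not remove a shift that differs with brightness. The Myh6 sets differed by -0.04 (brighter) and 0.25 (dimmer) between the air groups, without a call. The order therefore largely restates the Myh7 difference and is not separate support for it. The zero of this ratio has no meaning, since the probe sets have different brightness. Within groups the Myh6 sets themselves followed Myl7, with r = 0.63 (brighter) and -0.50 (dimmer), and the part of this in the ratio was not tested. The log2 signal of Myh7 less that of Myh6, from the brighter sets, was 0.06 ± 0.36 (SD, n = 4) in the WKY-air group and -0.13 ± 0.24 with exhaust, against -0.83 ± 0.13 in SH rats in air and -0.68 ± 0.44 in SH rats in exhaust. All 4 SH-air arrays, at -1.01 to -0.71, were below all WKY-air arrays, at -0.41 to 0.42. From the dimmer sets it was 0.30 ± 0.18, -0.50 ± 0.26, -1.19 ± 0.12 and -1.44 ± 0.64 in the same order of groups. There the WKY-DE arrays (-0.76 to -0.22) also lay entirely below the WKY-air arrays (0.13 to 0.49), whereas with the brighter sets those groups overlapped.

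**Figure D2:**
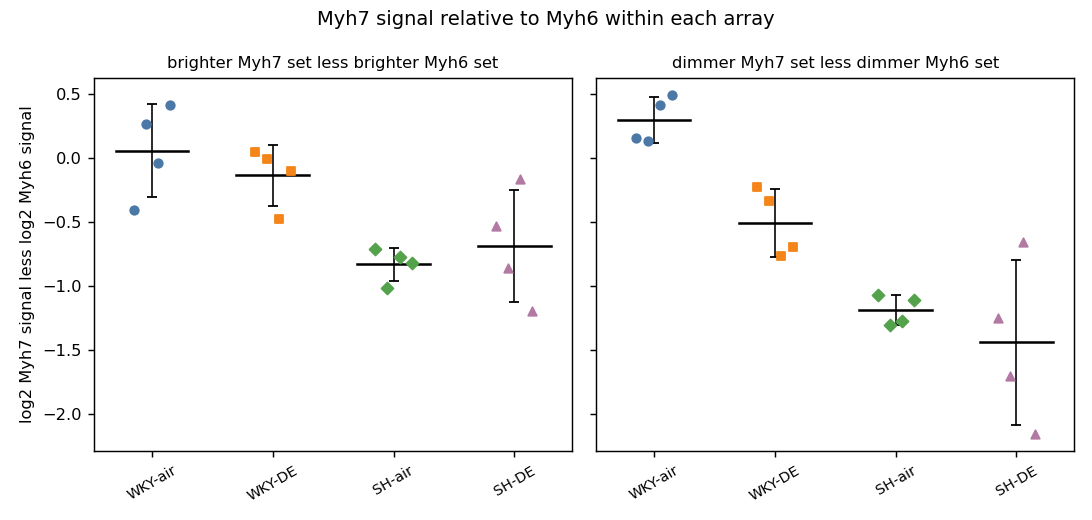
Log2 signal of Myh7 less log2 signal of Myh6 on each array, for the brighter probe sets (left) and the dimmer ones (right), with group mean and SD. In both pairings the SH-air points lie below the WKY-air points, and in SH-DE they spread most widely, from -1.19 to -0.16 and from -2.15 to -0.65.

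Diesel exhaust was followed by lower Acta1 in WKY rats. The signal of Acta1 was 23824, 19242, 21926 and 16336 in WKY-air and 13764, 13843, 14051 and 12839 in WKY-DE. No exposed array reached the lowest air array, and the exposed arrays differed little among themselves (a coefficient of variation of 3.94%, against 16.0% in WKY-air). The log2 difference was -0.56 (SE 0.14, 95% confidence interval -0.86 to -0.27, adjusted p = 0.0498), a ratio of 0.677 (0.553 to 0.828). Acta1 was the only one of the 9 members called in this comparison, where 0.511% of all probe sets were called lower and 1.37% higher.

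The adjusted p lay just inside its threshold. The call remained in 2 of the 16 fits that left out 1 array (those without WKY-air 4 and without SH-DE 2), with differences from -0.66 to -0.48 and adjusted p up to 0.107 over the 16. It was also lost after quantile normalization (-0.33, adjusted p = 0.157) and with the array of highest Myl7 left out of WKY-air, WKY-DE and SH-DE (-0.50, adjusted p = 0.151). The summed ventricular, fibroblast, macrophage and smooth muscle markers were lower in WKY-DE as well, and their part in the Acta1 difference was not tested. Within groups Acta1 followed Myl7 with r = 0.12 over the 16 arrays.

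The scaling of the arrays bears on every bright probe set in WKY-DE. Over all probe sets the median log2 difference of WKY-DE from WKY-air was 0.10, while over the brightest 159 (1%), with a mean signal of at least 11351, it was -0.25, with 4 called lower and 0 higher. The members other than the dimmer Myh7 and Myh6 sets lay above the 99th percentile of every array. They are thus part of the brightest 159, and Acta1 is 1 of the 4 called lower. The median over the 9 members was -0.28. After quantile normalization the medians were 0.01 over all and 0.01 over the brightest, and Acta1 was -0.33. For SH-DE against SH-air the median over the brightest was -0.14 as deposited and -0.02 after quantile normalization. The ventricular markers Myl2, Myl3, Tnni3, Tnnt2 and Actn2 are as bright as these probe sets. The summed ventricular markers were not computed again after quantile normalization.

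**Figure D3:**
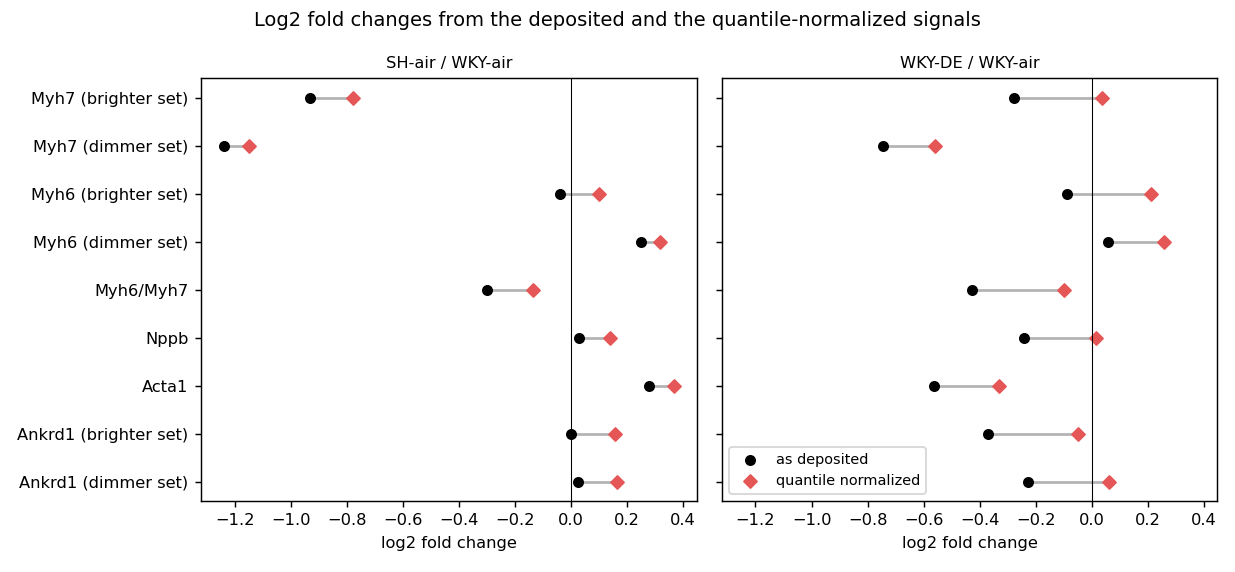
Log2 fold changes of the 9 probe sets from the deposited signals (black circles) and after quantile normalization (red diamonds), for SH-air against WKY-air (left) and WKY-DE against WKY-air (right). The shift in WKY-DE is upward for every probe set and takes 4 of them across 0, while Myh7 in SH-air stays at -0.78 or lower in both sets.

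The other members in WKY-DE had lower means in most cases and no call. The brighter Myh7 set read 31649, 27305, 32486 and 30534, all below the lowest WKY-air array of 35097. Its difference of -0.28 (SE 0.18, adjusted p = 0.392) turned to 0.04 after quantile normalization. The dimmer Myh7 set was 7876, 6246, 3361 and 5369, again without overlap, and differed by -0.75 (SE 0.29, adjusted p = 0.165). The shared myosin set was 31238, 27303, 40272 and 37470, under the lowest WKY-air array of 41732, with a difference of -0.43 (adjusted p = 0.118), or -0.10 on the quantile scale (adjusted p = 0.707). The summed ventricular markers likewise lay lower in WKY-DE without overlap, and their part was not tested. Counting Acta1, 4 of 9 members were lower without overlap, where 4.27% of all probe sets were lower and 8.39% higher in that way. Apart from Acta1 these are all probe sets of Myh7, alone or shared with Myh6, and are not independent measurements. Myh6 differed by -0.09 (adjusted p = 0.832) and 0.06 (adjusted p = 0.865), the former turning to 0.21 on the quantile scale.

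Nppb, the peptide hormone gene, had signals of 24174, 17881, 16960 and 14545 in WKY-air and of 17324, 15038, 14871 and 14042 in WKY-DE. The SH-air arrays gave 18219, 19856, 17493 and 18277 and the SH-DE arrays 19272, 20966, 18399 and 16252. Array 1 of WKY-air, which also had the highest Myl7, was the highest of all 16 arrays, and the ranges of the groups overlapped in each of the 4 pairwise comparisons. The differences were 0.03 (-0.28 to 0.34, adjusted p = 0.944) for SH-air against WKY-air, -0.24 (-0.55 to 0.07, adjusted p = 0.360) for WKY-DE against WKY-air with 0.01 on the quantile scale, and 0.02 (-0.29 to 0.32, adjusted p = 0.997) for SH-DE against SH-air. On the quantile scale the first of these was 0.14 and the last 0.16, without a call.

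Ankrd1, the titin-binding stretch protein, was near the top of every array. Its brighter set read 44919, 39429, 44872 and 36640 in WKY-air and 29730, 27298, 39195 and 32741 in WKY-DE. In SH rats it read 42738, 43528, 40559 and 38712 with air and 33810, 39461, 30062 and 29948 with exhaust. The air groups of the strains coincided in the deposited signals, with a difference of 0.00 (95% confidence interval -0.29 to 0.29, adjusted p = 0.998). On the quantile scale the air groups differed by 0.16 in the brighter set (adjusted p = 0.422) and 0.16 in the dimmer set (adjusted p = 0.397). The exposed groups had lower means in both strains without a call, by -0.37 in WKY (SE 0.13, adjusted p = 0.143) and by -0.32 in SH (SE 0.13, adjusted p = 0.768). On the quantile scale the difference was -0.05 in WKY and -0.06 in SH. The summed ventricular markers were lower with exhaust in both strains too, and their part was not tested. The dimmer set differed by -0.23 (adjusted p = 0.409) in WKY, or 0.06 on the quantile scale, and by -0.31 (adjusted p = 0.807) in SH, or -0.08 on the quantile scale. In the deposited signals of that set the SH-DE arrays (23508 to 29575) lay below the SH-air arrays (31324 to 36532). Within groups the brighter and dimmer Ankrd1 sets followed Myl7 with r = 0.44 and 0.66.

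In SH rats, exposure gave no call for any member or for any of the 15866 probe sets (0% by limma), with 977 probe sets (6.16%) and 2 of the 9 members (the dimmer Myh6 and the brighter Ankrd1 set) at an unadjusted p under 0.05. Acta1 was 25591, 27211, 22806 and 22435 in SH-air and 20588, 24422, 18001 and 18308 in SH-DE, overlapping ranges with a difference of -0.28 (-0.57 to 0.02, adjusted p = 0.807). The brighter Myh7 set in SH-DE ranged widely, at 18768, 17568, 25554 and 11590, and differed from SH-air by -0.13 (-0.51 to 0.24, adjusted p = 0.945), which turned to 0.02 on the quantile scale. Array 3 of SH-DE, highest in Myh7, was also the one with Myl7 at 7876. The dimmer Myh7 set was 3180, 2071, 4091 and 1523 and differed by -0.61 (-1.23 to 0.01, adjusted p = 0.802). Myh6 differed by -0.28 (adjusted p = 0.876) and -0.36 (adjusted p = 0.788). Ranges without overlap were found for 2 of 9 members, the shared myosin set (-0.30, adjusted p = 0.802, or -0.05 on the quantile scale) and the dimmer Ankrd1 set, both lower in SH-DE, where 2.04% of all probe sets were lower in that way.

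The strain by exposure interaction, which tests whether exposure acted differently in the strains, was not called by limma for any member, where 1 of 15866 probe sets (0.0063%) was. At an unadjusted p under 0.05 there were 0 of 9 members and 12.5% of all probe sets. For Acta1, called in WKY and not in SH, it was 0.29 (95% confidence interval -0.12 to 0.70, adjusted p = 0.565), so that a different response of Acta1 in the strains was not shown. The interaction of smallest p was that of the dimmer Myh6 set, at -0.42 (-0.88 to 0.04, adjusted p = 0.453).

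Between the exposed groups, no member was called by limma in a comparison where 0.813% of all probe sets were. At an unadjusted p under 0.05 there were 3 of 9 members and 13.3% of all probe sets. The brighter Myh7 set was lower in SH-DE than in WKY-DE by -0.78 (SE 0.18, adjusted p = 0.0567) without overlap, the highest SH-DE array at 25554 and the lowest WKY-DE array at 27305. Over the 16 fits that left out 1 array the difference ran from -0.96 to -0.58 and was called in 1 of them. That was the fit without array 3 of SH-DE (-0.96, adjusted p = 0.0058), and without array 4 of SH-DE it was -0.58 (adjusted p = 0.0804). The dimmer Myh7 set differed by -1.10 (SE 0.29, adjusted p = 0.10) with overlapping ranges. Acta1 was higher in SH-DE by 0.57 (SE 0.14, 95% confidence interval 0.28 to 0.86, adjusted p = 0.0745) without overlap, where 5.71% of all probe sets were lower and 3.09% higher without overlap. It was called on the quantile scale (0.57, adjusted p = 0.0282). Nppb differed by 0.29 (adjusted p = 0.413), Myh6 by -0.23 and -0.17, and Ankrd1 by 0.05 and -0.05. The latter turned to 0.03 on the quantile scale.

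**Figure D4:**
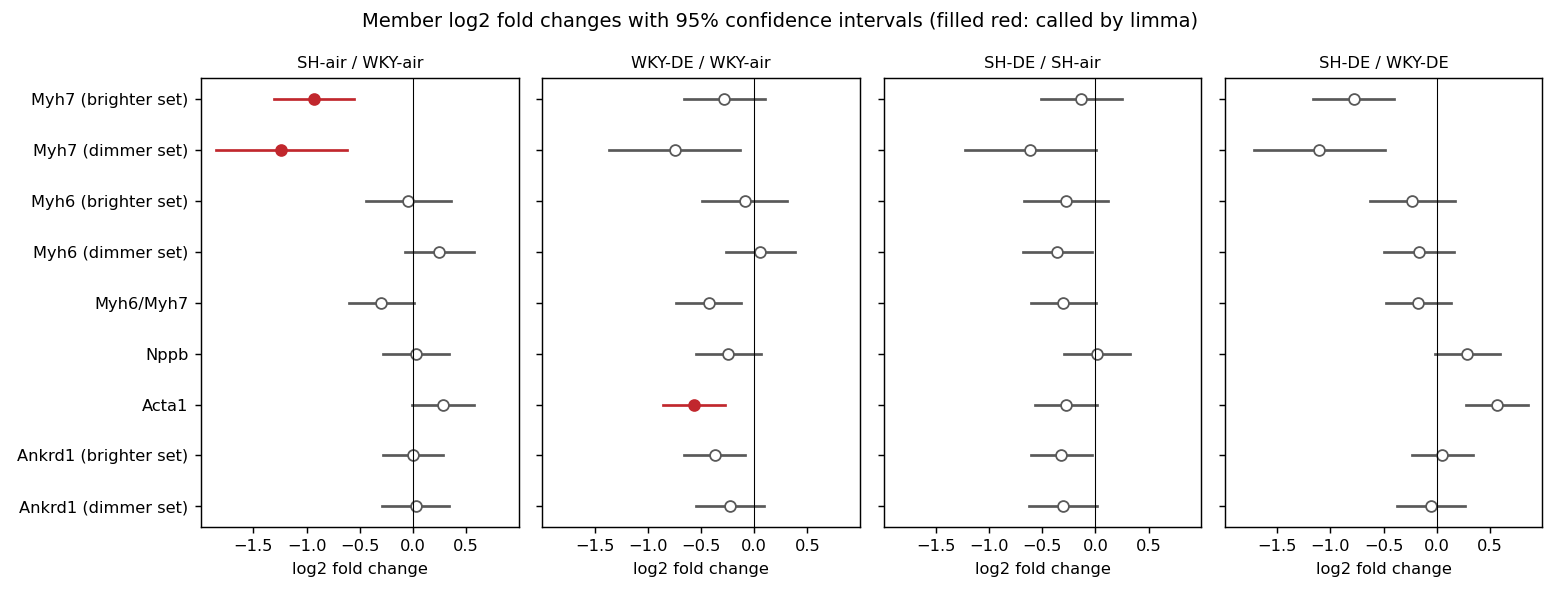
Log2 fold change (point) and 95% confidence interval (line) of each probe set in the 4 pairwise comparisons of groups, from the deposited signals, with filled red symbols for probe sets called by limma. Both Myh7 sets are called in SH-air against WKY-air and Acta1 in WKY-DE against WKY-air, and no symbol is filled in the comparisons that involve SH-DE. The comparisons in the first pair of panels share the WKY-air arrays.

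By the order of group means, the brighter Myh7 set ran from 36972 ± 1750 (SD, n = 4) in WKY-air through 30494 ± 2271 in WKY-DE to 19401 ± 1019 in SH-air, then 18370 ± 5727 in SH-DE, and the last neighbours did not differ beyond their spread. Acta1 ran from 24511 ± 2286 in SH-air through 20332 ± 3261 in WKY-air and 20330 ± 2962 in SH-DE to 13624 ± 537 in WKY-DE. Only the last step of Acta1 exceeded the ranges of the groups on either side of it. The highest mean of Myh7 and the lowest of Acta1 were thus both in WKY rats, and across the 16 arrays the signals of Myh7 and Acta1 had r = -0.40 (-0.01 within groups).

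**Figure D5:**
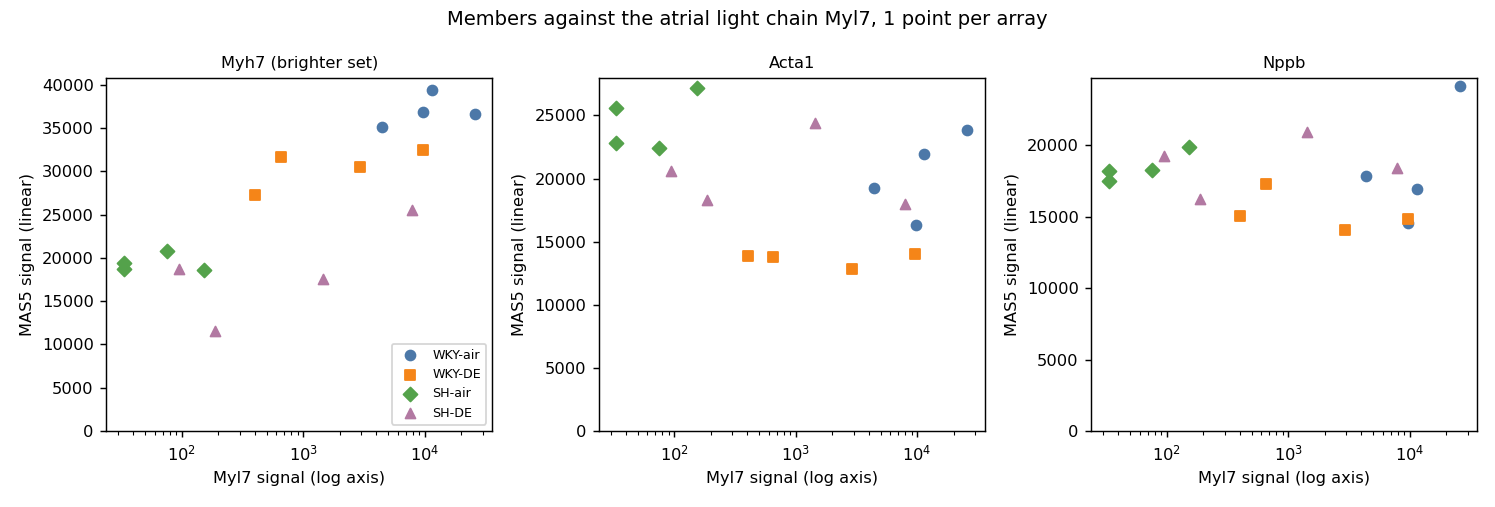
Signal of Myh7, Acta1 and Nppb (linear scale from 0) against that of the atrial light chain Myl7 (log axis), 1 point per array and 1 symbol per group. SH-air arrays have Myl7 at 154 or less and Myh7 at 20833 or less. Arrays 1 and 2 of WKY-DE have Myl7 at 657 and 404 with Myh7 at 31649 and 27305. Array 2 of SH-DE has Myl7 at 1443 with Myh7 at 17568. Acta1 lies between 12839 and 14051 in WKY-DE, where Myl7 runs from 404 to 9630. In WKY-air it lies between 16336 and 23824, where Myl7 runs from 4415 to 25946.

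The genes whose signal was most like each member over the 16 arrays, of 6000 named probe sets of at least median brightness, differed between members. These correlations are over arrays that share their scaling and tissue composition. For Myh7 they were Plk2, a polo-like kinase (r = 0.96, and 0.82 within groups), Gimap4 (0.94), Retsat, retinol saturase (0.93), Sipa1l2 (0.92) and Cd93, a receptor of endothelial cells (0.91). For Myh6 they were Pln, the phospholamban that restrains the calcium pump of the sarcoplasmic reticulum (0.90), Ckmt2 (0.88), COX1 (0.88), Ldhb (0.86) and the ventricular light chain Myl2 (0.86). Nppb was followed by Pmm1 (0.83), Acta1 (0.76, and 0.78 within groups), Cyc1 (0.76), Serf2 (0.76) and Timm8b (0.75). Acta1 was followed by C2h1orf52 (0.88), the small heat shock protein gene Hspb1 (0.85), Vps37b (0.85), Tpp2 (0.85) and Ndufb6 (0.85). Within groups their r with Acta1 was 0.40, 0.33, 0.22, 0.76 and 0.60, in that order. Ankrd1 was followed by Hspb6 (0.96, and 0.92 within groups), the mitochondrial phosphate carrier Slc25a3 (0.89), the cardiac troponins Tnnc1 (0.88) and Tnni3 (0.87), and the nucleotide carrier Slc25a4 (0.86).

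The other genes of contraction seldom passed the test. Of 18 measured genes of sarcomeric myosins and their partners, the atrial light chains Myl7 (-7.08, adjusted p = 0.00586) and Myl4 (-4.80, adjusted p = 0.0153) were called lower in SH-air and none in WKY-DE, and the median differences were -0.18 in SH-air and -0.27 in WKY-DE, beside 0.02 and 0.10 over all probe sets. Over the brightest 159 probe sets the medians were -0.10 in SH-air and -0.25 in WKY-DE. Of 16 genes of actins and the thin filament none was called in any comparison, with medians of -0.03 and -0.07. Cardiac troponin T (Tnnt2) averaged 49600 in WKY-air and 35530 in WKY-DE, a difference of -0.50 (adjusted p = 0.119). Lmod3 went the other way, from 187 in WKY-air to 270 in WKY-DE (0.51, adjusted p = 0.0522). Of 22 genes of titin, the Z-disc and stretch signaling, 1 was called, Ankrd23, a relative of Ankrd1 that also binds titin. It averaged 1427 ± 634 in WKY-air and 659 ± 74.8 in WKY-DE (-1.02, SE 0.23, adjusted p = 0.0398), with all WKY-DE arrays at 746 or lower and all WKY-air arrays at 1031 or higher. Without a call, Cryab was lower in WKY-DE (-0.52, adjusted p = 0.0613) and Trim63 was higher (0.70, adjusted p = 0.0914). Tnnt2 and Cryab are among the brightest probe sets, and the part of array scaling in their differences was not tested.

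Of 9 genes of the natriuretic peptide system none was called, with medians of -0.20 in SH-air and -0.17 in WKY-DE. Nppa, the atrial natriuretic peptide gene, was 50798, 27988, 26080 and 16396 in WKY-air and 20500, 10863, 24857 and 9636 in WKY-DE. The SH-air arrays gave 12405, 23097, 11633 and 12221, and those of SH-DE 12388, 16061, 20148 and 12521. Its differences were -0.97 (SE 0.36, adjusted p = 0.178) in SH-air and -0.88 (adjusted p = 0.189) in WKY-DE, each from WKY-air, in which array 1 with the highest Myl7 was also highest in Nppa. The guanylyl cyclase receptors Npr1 and Npr2 differed in SH-air by -0.20 (adjusted p = 0.524) and -0.33 (adjusted p = 0.265).

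Among 25 transcription factors and calcineurin signaling genes of hypertrophy, 1 was called lower in SH-air than in WKY-air, Tbx5, a factor of cardiac development (131 against 70.1, -0.75, adjusted p = 0.0492), and none in WKY-DE, with medians of -0.01 and -0.08. Mef2d (-1.41, adjusted p = 0.0458) and Vgll4 (-0.61, adjusted p = 0.0406), a cofactor of the TEAD factors that bind MCAT elements, were called lower in SH-DE than in WKY-DE. Rcan1, a calcineurin inhibitor that calcineurin itself induces, averaged 6705 in WKY-air and 4648 in WKY-DE (-0.53, adjusted p = 0.123). Mef2d was higher in WKY-DE without a call, at 816 against 415 in WKY-air (0.995, adjusted p = 0.0943).

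Of 19 genes of the thyroid hormone response, 1 was called higher in SH-air, malic enzyme Me1 (1249 against 2015, 0.68, adjusted p = 0.0260), and 2 higher in WKY-DE, the receptor Thrb (138 against 232, 0.68, adjusted p = 0.0365) and the potassium channel Kcnd2 (169 against 311, 0.79, adjusted p = 0.0395). The median was 0.13 in both comparisons. The calcium pump gene Atp2a2 averaged 54515 in WKY-air and 49480 in SH-air (-0.13, adjusted p = 0.687).

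Of 28 other genes induced in hypertrophy, 2 were called, both higher in the air-breathing SH rats. They were Ccn1, a matricellular protein gene (51.3 against 155, 1.37, adjusted p = 0.0144), and Enah, an actin regulator (1201 against 2140, 0.82, adjusted p = 0.0168). Enah was called higher in SH-DE than in WKY-DE as well (1.01, adjusted p = 0.00729). In WKY-DE 1 was called, Ccn2, the connective tissue growth factor gene, lower at 1708 against 2987 (-0.80, adjusted p = 0.0462). Without a call there, Hspb1 (-0.68, adjusted p = 0.0554) and Postn (-1.63, adjusted p = 0.0566) were lower and Edn1 (0.76, adjusted p = 0.0594) was higher. The medians of this list were -0.12 in SH-air and -0.38 in WKY-DE. In SH-DE against SH-air no gene of any of these lists was called.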

How the data were processed

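Left ventricular RNA from 16 samples was hybridized to 16 arrays. The deposited table gives intensity values (linear signals) that the authors computed with MAS5 from Microarray Suite 5.0, per the labels, and that show a mean near 500 on each array after 2% was trimmed at each end. The RMA values of the paper were not used here. The 57 control probe sets were left out, 16.1 (the 10th percentile of all values) was added, and log2 values of 15866 probe sets were fitted with limma 3.58.1 (R 4.3.3) in 1 model of 4 group means (12 residual degrees of freedom), so that fold changes are on the log2(signal + 16.1) scale. Calls needed both an unadjusted p under 0.01 and an adjusted p under 0.05 (Benjamini-Hochberg over all 15866). The script was tested on simulated data. The number of arrays limits the precision.

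Genes were named through the platform annotation (12783 probe sets with 1 gene, 312 with several, 2771 with none). In lists, a gene was represented by its probe set of highest mean. Named were all member probe sets, called genes and up to 4 genes of lowest p per pathway list, and the 5 genes of highest correlation with each member. Members, lists and tests were chosen with earlier results of these data known. Alternatives changed the threshold, the offset, the normalization (quantile), a filter on dim probe sets, the variance model, array weights, the arrays in the fit and the replicate block. Promoter windows are from RefSeq (GRCr8), and 4 of the 5 members matched.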

Additional observations from a re-analysis of the deposited data

How the results depend on the processing

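The number of arrays limits what can be called, and the call of Acta1 in WKY-DE and that of the dimmer Myh7 set in SH-air depended on the setting, whereas Myh7 (brighter) in SH-air was called in 26 of 27 alternatives. Of the 45 member values, 17 changed sign under at least 1 alternative. None of the 3 called values was among them, and the 17 were at most 0.28 in size. The cause of each change was not tested. At an adjusted p under 0.01, 0 members were called in SH-air (Myh7 -0.93 and -1.24) and 0 in WKY-DE (Acta1 -0.56). With an offset of 1, 0 were called in WKY-DE (Acta1 -0.56, adjusted p = 0.0557), as with only the compared groups in the fit (-0.56, adjusted p = 0.115). Between SH-DE and WKY-DE, 2 members were called with an offset at the 25th percentile, 3 without the dimmest 40% of probe sets, 3 with an intensity trend, 3 with array weights and 1 after quantile normalization. The trend also gave 2 calls in WKY-DE.

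Quantile normalization left 1 call in SH-air (dimmer Myh7 -1.15, no longer called) and 0 in WKY-DE (Acta1 -0.33). It turned Myh6 (brighter) to 0.10 in SH-air and 0.21 in WKY-DE, Myh7 (brighter) to 0.036 in WKY-DE and 0.021 in SH-DE against SH-air, Nppb to 0.015 and Ankrd1 (dimmer) to 0.060 in WKY-DE, Ankrd1 (dimmer) to 0.026 in SH-DE against WKY-DE, and the interactions of Myh7 to -0.015 and -0.049 and of Ankrd1 (brighter) to -0.0093. Array weights turned Myh6 (brighter) in SH-air to 0.059, Ankrd1 (dimmer) in SH-DE against WKY-DE to 0.031 and the interaction of Myh7 (dimmer) to -0.045. Chosen after seeing the data, leaving out array 3 of both exposed groups gave 0 calls in WKY-DE (Acta1 -0.58, adjusted p = 0.0858), 2 between the exposed groups, 0.015 for Ankrd1 (dimmer) there and -0.33 for the interaction of Myh7 (dimmer). Leaving out the array of highest Myl7 from WKY-air, WKY-DE and SH-DE, likewise chosen after seeing the data, gave 0 calls in WKY-DE (Acta1 -0.50), 2 between the exposed groups, 0.11 for Myh6 (brighter) in SH-air, 0.015 for Ankrd1 (dimmer) and -0.30 for the interaction of Myh7 (dimmer).

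With single arrays left out, the members called ran from 1 to 2 in SH-air, 0 to 1 in WKY-DE and 0 to 2 between the exposed groups (2 without array 3 of SH-DE). Acta1 in WKY-DE ran from -0.66 to -0.48 and Myh7 (dimmer) in SH-air from -1.31 to -1.13. Values that changed sign ran, in SH-air, from -0.16 to 0.11 for Myh6 (brighter), -0.057 to 0.041 and -0.057 to 0.11 for the Ankrd1 sets and -0.075 to 0.17 for Nppb. In WKY-DE they ran from -0.23 to 0.064 and -0.024 to 0.20 for the Myh6 sets. In SH-DE against SH-air they ran from -0.041 to 0.082 for Nppb and -0.31 to 0.070 for Myh7 (brighter), and between the exposed groups from -0.033 to 0.15 and -0.14 to 0.033 for the Ankrd1 sets. For interactions they ran from -0.17 to 0.0068 and -0.034 to 0.15 for Ankrd1, and -0.097 to 0.38 and -0.030 to 0.35 for Myh7. Over all probe sets, the alternatives called 113 to 766 in SH-air (499 as reported), 4 to 667 in WKY-DE (298), 34 to 283 between the exposed groups (129), 0 to 3 in SH-DE against SH-air (0) and 0 to 6 for the interaction (1).

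With the replicate number as a block, 1 member was called in SH-air (Myh7 brighter, adjusted p = 0.0241, while the dimmer set at -1.24 had 0.0595) and 0 in WKY-DE (Acta1 -0.56, adjusted p = 0.0673), and it changed no other member's call. The numbers did not pair the arrays: over 24 pairs of the same number, deviations from group means correlated between -0.10 and 0.05, none over 0.1, and 2 of 16 arrays correlated best with their own number.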
